A study of Mus musculus with 8 samples.

Results

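Livers that carried recombinant adenovirus A20 (rAd.A20) were compared with livers that carried the control vector rAd.βgal, 24 h after a 78% liver resection. The comparison was chosen by the sample titles and holds 4 of the 8 arrays of the series, 2 post-A20 and 2 post-βgal, read over 17790 genes. The other 4 arrays, pre-βgal and pre-A20, carried liver with the same vectors before resection. They appear where they set a level or an earlier difference, and they enter the estimate of spread behind every test. All mice were BALB/c and 8 weeks old, had received their vector 5 days before surgery, and gave RNA that was pooled from 3 mice for each array. The control livers were therefore transduced and resected as well, and differed from the A20 livers in the transgene, which was β-galactosidase in place of A20. According to the treatment notes, 30 to 40% of hepatocytes carry a transgene at that time, so every signal is an average of transduced and other cells of the whole liver. Nothing states that the 2 pools of a group were prepared on separate occasions, so a p-value measures the spread between pools, which may be partly technical. The treatment notes of the post-A20 samples repeat the βgal wording, and the group was taken from their titles, source names and descriptions.

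A20, encoded by Tnfaip3, is a ubiquitin-editing protein that is itself induced by NF-κB and that shuts off signals from the TNF receptor, the interleukin 1 receptor and Toll-like receptors upstream of NF-κB. After a resection, the remaining hepatocytes leave quiescence under the influence of TNF, interleukin 6 and growth factors, pass G1 and the DNA synthesis phase, and divide, while the liver still has to make bile, plasma proteins and glucose. A remnant that is too small loses these functions before its mass returns. The vector holds human A20, which the values used here did not measure. The mouse gene Tnfaip3 had signals of 366 and 531 on the post-βgal arrays and 472 and 202 on the post-A20 arrays, so the groups overlapped.

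The arrays were Affymetrix Mouse Genome arrays, on which a set of short probes (a probe set) reads each transcript and a gene may have several. The signal is the deposited normalized intensity on a linear scale, with array medians from 153 to 163 in the 4 arrays compared. Fold changes and their standard errors (SE) are log2 values of the signal plus 16, A20 minus βgal, from the probe set of highest mean signal. A gene is called where limma gave an adjusted p under 0.05, and arrays not overlapping means that both post-A20 arrays lay above, or both below, both post-βgal arrays. Array post-βgal 1 stood apart in RNA integrity, with a ratio of 3′ to 5′ β-actin signal of 3.64 against 1.31 to 1.43 in the other 3. Among the arrays before resection, which share the estimate of spread, the ratio was 7 on pre-βgal 1 and 1.27 to 1.62 on the others. The hepatocyte markers summed to 73370 and 70860 on the post-βgal arrays and to 73880 and 75870 on the post-A20 arrays, so all 4 arrays read as liver. The neutrophil markers differed, with 4 of 9 tested called lower and sums of 5518 and 6496 against 2702 and 2388. The post-A20 arrays lay below in 6 of them and above in 1. S100a8 and S100a9 made up most of the post-βgal sums, whereas Ngp, Camp and Ltf changed little and Cxcr2 was higher. The summed markers of Kupffer cells were 4536 and 5767 against 6002 and 5571, and the group means of the other cell types lay within 1.5-fold of each other.

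With A20, 59 genes differed after resection, which was 0.332% of the genes tested, with 17 higher (0.0956%) and 42 lower (0.236%). The higher genes included the dehydrogenase Adh4, the nuclear receptor Nr1i3 and the bile salt pump Abcb11, and the lower ones the lipopolysaccharide co-receptor Cd14, the calprotectin genes S100a8 and S100a9 and the decoy receptor Il1r2. The arrays did not overlap for any of the 59. Of them, 15 higher and 25 lower genes were at least 2-fold apart in each of the 4 pairs of 1 post-A20 and 1 post-βgal array, and the narrowest pair of any called gene was 1.54-fold apart. Over all genes, the post-A20 arrays lay above the post-βgal arrays in 33.7% and below in 26.4%, and 37 genes (0.208%) were at least 2-fold higher and 48 (0.27%) at least 2-fold lower in every pair. At 1.5-fold in every pair there were 182 higher (1.02%) and 329 lower (1.85%). At an unadjusted p under 0.05 there were 1789 higher (10.1%) and 1701 lower genes (9.56%). By the interval criterion, a fold change whose 90% interval had its lower end at 1.5 or above by any probe set of the gene, 334 genes (1.88%) differed, 118 higher (0.663%) and 216 lower (1.21%), and 57 of the 59 met it. Over all 42703 probe sets kept, 121 were called, of which 14 (0.152% of 9203) had no single gene symbol and are not named.

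Most large differences had the same direction in both pairs of pools. Taken as 2 separate pairs, the log2 ratio of post-A20 1 to post-βgal 1 and that of post-A20 2 to post-βgal 2 had a Pearson r of 0.602 and a Spearman rho of 0.585 across genes, which are not independent replicates. With the pairs crossed, r was 0.618 and rho 0.564. Of the genes at least 2-fold lower in one pair, 77.4 to 96.1% were lower in the other, against 44.2 to 47.1% of all genes. For genes at least 2-fold higher the share was 78.1 to 94.1%, against 52.9 to 55.8% of all genes. A repeat of the full size was less frequent, since 19.2 to 52% of those genes were also 2-fold apart in the second pair, which was still far over the 0.714 to 1.93% of all genes. The number of called genes depended on single arrays, and was 3 and 5 without post-βgal 1 and 2, 0 and 5 without post-A20 1 and 2 (limma, with 1944 genes at an unadjusted p under 0.05 in the fit with 0), 26 without either pre-A20 array, and 467 and 452 without pre-βgal 1 and 2. All 59 kept their direction in each of these fits, which was fixed in advance because their arrays did not overlap. The arrays before resection count here because the 4 groups share 1 estimate of the spread. The pre-βgal arrays differed most from each other, with 401 genes at least 2-fold apart, against 49 to 99 in the other groups. Without both βgal replicate 1 arrays, those with the highest β-actin ratios, 87 genes were called, among them 39 of the 59, and with that ratio as a covariate 682, among them all 59.

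**Figure D1:**
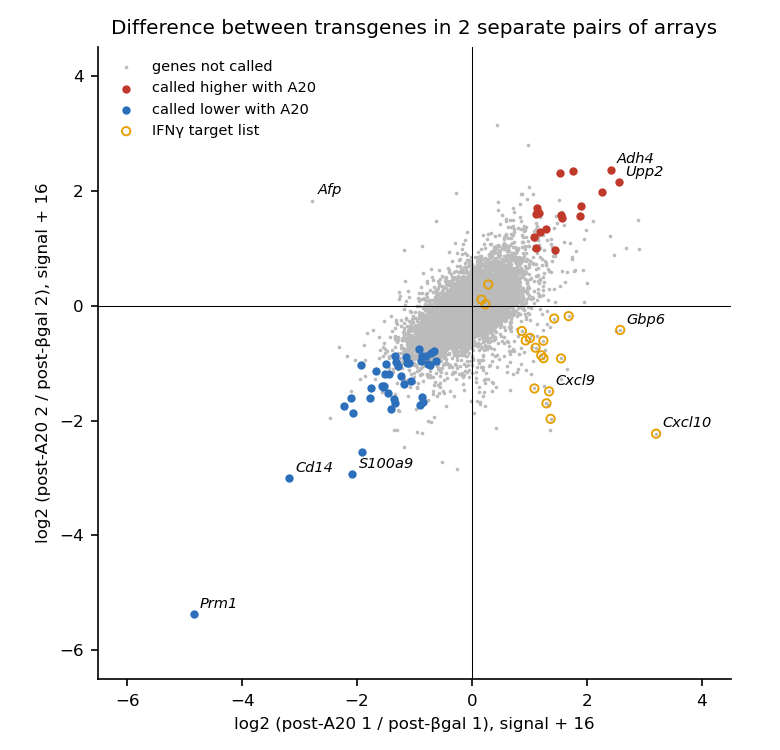
Each point is a gene, with the log2 ratio of post-A20 1 to post-βgal 1 on the horizontal axis and that of post-A20 2 to post-βgal 2 on the vertical axis, both of the signal plus 16. The 17 genes called higher (red) lie in the upper right and the 42 called lower (blue) in the lower left, while most IFNγ targets (orange rings) lie to the lower right, where the 2 pairs disagree.

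Apart from Prm1, described further on, the largest fall with A20 was in Cd14, the co-receptor that hands bacterial lipopolysaccharide to Toll-like receptor 4. Its signal was 5353 and 5405 on the post-βgal arrays and 574 and 663 on the post-A20 arrays, a log2 fold change of −3.09 (SE 0.32, adjusted p = 0.0177). Before resection it had been 766 and 344 with βgal and 152 and 169 with A20 (−1.59, adjusted p = 0.0502). Il1r2, the decoy receptor that binds interleukin 1 without signalling, was almost flat within each group. It measured 426 and 431 in post-βgal and 88.6 and 107 in post-A20 (−1.97, SE 0.12, adjusted p = 0.00257). Its levels before resection lay between 84.2 and 116 with both vectors, a range that also held both post-A20 arrays. Of 18 genes of lipopolysaccharide and interleukin 1 sensing tested, these 2 were called, both lower, and the median of the list was −0.18 against 0.03 over all genes tested. Tlr4 itself, the receptor that Cd14 serves, had 206 and 238 against 156 and 173 (−0.40, adjusted p = 0.198), and Il1b had 538 and 585 against 731 and 664 (0.30, adjusted p = 0.311).

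The subunits of calprotectin, which neutrophils carry in bulk, were lower together. S100a9 had signals of 1718 and 2159 in post-βgal and 393 and 268 in post-A20 (−2.51, SE 0.27, adjusted p = 0.0177), and S100a8 had 1634 and 1837 against 422 and 301 (−2.23, SE 0.28, adjusted p = 0.0278). Both were also called lower with A20 before resection, by −2.65 (adjusted p = 0.0189) and −2.08 (adjusted p = 0.0232). Mmp8, the neutrophil collagenase, then had 154 and 152 against 134 and 120 (−0.24, adjusted p = 0.308). After resection Mmp8 measured 372 and 472 against 138 and 135 (−1.52, SE 0.13, adjusted p = 0.00643). Together with Il1r2 these were 4 genes called lower of 21 neutrophil genes tested. Over the list the post-A20 arrays lay below in 9 and above in 5, and the median was −0.10. The granule genes Mpo, Elane, Prtn3, Ngp, Camp and Ltf had log2 fold changes from −0.15 to 0.17, and Lcn2, which hepatocytes also make, had 13760 and 14000 against 11810 and 14160. Cxcr2, a receptor for neutrophil chemokines, had 483 and 550 against 706 and 689 (0.42, adjusted p = 0.259). In whole liver, fewer cells of a type and less RNA per cell cannot be told apart, and the part of neutrophil number in these differences was not tested. Other called genes of leukocytes and platelets were also lower. Pf4, a chemokine of platelets, had 817 and 751 against 280 and 361 (−1.26, adjusted p = 0.0314). Alox5ap, which presents arachidonic acid for leukotriene synthesis, had 512 and 536 against 270 and 268 (−0.92, adjusted p = 0.0365), and Pirb, an inhibitory receptor of myeloid cells, had 190.0 and 207 against 108 and 92.1 (−0.89, adjusted p = 0.0298).

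A20 acts on NF-κB. Of a list of 20 NF-κB feedback and target genes none was called, where 0.332% of all genes tested were. At that share a list of this size rarely holds a call. The median of the list was −0.23 against −0.49 before resection. The post-A20 arrays were above in 4 and below in 4 of its genes, where the shares over all genes were 33.7% above and 26.4% below. The largest difference in the list was in Ier3, an early response gene, with 1202 and 979.7 in post-βgal and 205 and 242 in post-A20, a log2 fold change of −2.21 that did not pass (adjusted p = 0.0676). Nfkb2, a subunit of the factor, had 324 and 386 against 266 and 215 (−0.53, adjusted p = 0.293), and Icam1, an adhesion molecule for leukocytes, overlapped at 537 and 994 against 548 and 261. Of 16 genes of TNF receptor signalling none was called, with a median of −0.02. Tnfrsf1b, the second TNF receptor, was the nearest at 790.1 and 619 against 445 and 412 (−0.69, adjusted p = 0.129).

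The promoters of called genes were searched for the κB motif, on both strands, from 250 bases before to 50 bases after the start site in RefSeq promoters of build GRCm38.p6. That build is of another mouse strain than BALB/c. A match was present in 4.51% of all 32851 promoters of the table and in 5.13% of the 17760 promoters of genes tested. Of the genes called lower, 33 of 42 had an entry, with 34 promoters, of which 2 (5.88%) held a match. Of the genes called higher, 16 of 17 had an entry, and 2 of their 22 promoters (9.09%) held one, both of them of 1 gene. The NF-κB list, by comparison, had 11 of 20 promoters with a match (55.0%). The promoters printed here show such matches among the 30 genes with the largest called differences, with the κB match in capitals, each strand as transcribed. Creld2 encodes a protein of the endoplasmic reticulum induced by unfolded proteins, and Ndrg2 a stress-responsive member of the NDRG family. They lie at chr15:88819396-88819695 (plus strand, match from −93 to −84 relative to the start site) and chr14:51913439-51913738 (minus strand, −112 to −103), the latter 1 of 3 promoters listed for Ndrg2.
Creld2: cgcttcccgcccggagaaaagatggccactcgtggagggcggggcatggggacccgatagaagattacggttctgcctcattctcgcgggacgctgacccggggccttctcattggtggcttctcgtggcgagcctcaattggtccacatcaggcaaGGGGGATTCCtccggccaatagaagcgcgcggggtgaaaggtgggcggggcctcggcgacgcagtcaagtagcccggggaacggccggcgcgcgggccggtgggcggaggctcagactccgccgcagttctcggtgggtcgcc
Ndrg2: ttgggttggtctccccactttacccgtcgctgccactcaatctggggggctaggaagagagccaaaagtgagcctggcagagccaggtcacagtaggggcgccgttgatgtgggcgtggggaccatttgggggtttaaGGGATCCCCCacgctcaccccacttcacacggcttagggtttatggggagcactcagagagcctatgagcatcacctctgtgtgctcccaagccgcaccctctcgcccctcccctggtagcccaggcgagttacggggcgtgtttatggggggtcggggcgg
Creld2 was called lower and Ndrg2 higher, so the motif occurred beside both directions. Creld2 had signals of 2856 and 2816 in post-βgal and 1065 and 802 in post-A20 (−1.60, SE 0.22, adjusted p = 0.0387), and Ndrg2 had 1568 and 1567 against 3571 and 3827 (1.23, SE 0.14, adjusted p = 0.0216). Other genes of endoplasmic reticulum stress did not pass, and the 24 tested had a median of −0.12.

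Among the remaining called genes that were lower with A20, several encode secreted or nuclear regulators of growth signals. Fst, follistatin, which traps activin, had 441 and 479.6 in post-βgal and 197 and 233 in post-A20 (−1.05, SE 0.12, adjusted p = 0.0216). Bmper, a secreted protein that binds bone morphogenetic proteins, had 982 and 919 against 380.2 and 491 (−1.11, SE 0.14, adjusted p = 0.0298). Before resection Bmper read 64.1 to 122 and Fst 144 to 229.7, so that Bmper with A20 lay between those levels and post-βgal and Fst with A20 lay close to those levels. Klf10, a transcription factor induced by TGF-β, had 519.5 and 571 against 166 and 205 (−1.48, SE 0.21, adjusted p = 0.0404). Cd24a, a surface glycoprotein of progenitor and immature cells, had 1291 and 1336 against 264 and 387 (−1.98, SE 0.19, adjusted p = 0.0141), and all 3 of its probe sets moved one way. Of 14 progenitor, fetal and biliary genes tested it was the 1 called, and the median of that list was 0.06.

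Several enzymes of nitrogen, nucleotide and energy metabolism were lower as well. Arg2, the mitochondrial arginase, had 284 and 282 in post-βgal and 71.7 and 81.5 in post-A20 (−1.69, SE 0.10, adjusted p = 0.00257), and before resection it had read 54.6 to 77.0 on all 4 arrays. Cad, the enzyme that begins the synthesis of pyrimidines, had 531 and 440.3 against 204 and 214 (−1.15, adjusted p = 0.0255), while Upp2, which degrades uridine, was among the genes called higher. Ppp1r3g, a subunit that directs a phosphatase to glycogen, had 129 and 149 against 46.0 and 54.6 (−1.23, SE 0.12, adjusted p = 0.0170). Slc39a4, a zinc importer, had 1053 and 1127 against 455 and 426 (−1.28, adjusted p = 0.0490). Dna2, a nuclease and helicase of DNA replication, had 839 and 754 against 375 and 369 (−1.07, adjusted p = 0.0406). The kinase-like proteins Coq8a and Coq8b, both used in the synthesis of coenzyme Q, went opposite ways. Coq8b had 2383 and 1678 in post-βgal and 540.2 and 539 in post-A20 (−1.86, SE 0.21, adjusted p = 0.0198), and Coq8a had 425 and 488 against 1616 and 1467 (1.72, SE 0.18, adjusted p = 0.0177). Before resection Coq8b read 400.2 to 512 and Coq8a 2185 to 3479 on all 4 arrays, so for both genes the post-A20 arrays were nearer to the levels before resection.

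Of the 59 called genes, the largest log2 difference was that of Prm1, which encodes a sperm chromatin protein. Its signal was 1060 and 1372 in post-βgal and 21.6 and 17.5 in post-A20, below the minimum of 40 used for a group mean (−5.11, SE 0.43, adjusted p = 0.00643). Before resection the βgal arrays read 3462 and 1157 and the A20 arrays 23.7 and 17.9. A second probe set of the gene behaved alike (−5.44) while the last of its 3 did not (0.10, with 191 to 249 on the 4 arrays after resection). The difference between the vectors for Prm1 was thus seen both before and after resection, by 2 probe sets of 3. Which sequence these probe sets read was not tested. Among the 18 called genes with more than 1 kept probe set, 14 had all of them in one direction, and the exceptions besides Prm1 were Cad, Chml and Slfn1, each with a dim probe set that read the other way. The other called genes that were lower among the 15 of largest fall were Crybb3, a crystallin (−1.59), Ttc39a (−1.50), B3galnt1, a glycosyltransferase (−1.49), and Syt12, a synaptotagmin (−1.49). The remainder of the 42, such as the splicing factor Prpf31 (−1.02) and the mitochondrial ribosomal protein Mrpl45 (−1.35), ranged down to the smallest called fold change of 1.65-fold.

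The largest rises with A20 were in enzymes. Adh4, an alcohol and retinol dehydrogenase, had signals of 316 and 324 in post-βgal and 1754 and 1740.0 in post-A20 (2.39, SE 0.20, adjusted p = 0.00643), and Upp2, uridine phosphorylase, had 125 and 154 against 819.5 and 736 (2.36, SE 0.17, adjusted p = 0.00488). Both had been higher with A20 before resection too, by 1.81 (adjusted p = 0.0189) and 1.53 (adjusted p = 0.0189). For Adh1, the main alcohol dehydrogenase of liver, that earlier difference was 0.06 (adjusted p = 0.788). After resection Adh1 read 5516 and 5757 with βgal and 11950 and 11540 with A20 (1.06, SE 0.11, adjusted p = 0.0177), where it had been 11350 to 12310 on the 4 arrays before resection. Hsd3b3, a steroid dehydrogenase, had 279 and 276 against 1400 and 1128 (2.12, SE 0.21, adjusted p = 0.0153). Akr1c6, another steroid dehydrogenase, had 3461 and 2518 against 7517 and 7616 (1.35, adjusted p = 0.0298). Gulo, which completes vitamin C synthesis, had 1057 and 776 against 3084 and 3919 (1.92, SE 0.22, adjusted p = 0.0216).

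Receptors and bile acid genes were also among those called higher. Nr1i3, the nuclear receptor CAR that senses foreign compounds, had 302 and 299 in post-βgal and 1055 and 1588 in post-A20 (2.05, SE 0.26, adjusted p = 0.0298). Its classical target Cyp2b10 nevertheless had 4977 and 4191 against 2016 and 1644, a log2 fold change of −1.32 that did not pass (adjusted p = 0.0860). Abcb11, the bile salt export pump, had 809 and 846 against 2407 and 2551 (1.56, SE 0.17, adjusted p = 0.0185), and Akr1d1, a reductase of bile acid synthesis, had 657 and 645 against 1975 and 1883 (1.54, SE 0.18, adjusted p = 0.0228). Klb, the co-receptor through which hepatocytes read fibroblast growth factors of the gut, had 182 and 188 against 429.9 and 608 (1.39, adjusted p = 0.0343). Ghr, the growth hormone receptor, had 1818 and 1512 against 3853 and 3481 (1.14, SE 0.16, adjusted p = 0.0451). Klkb1, plasma prekallikrein, had 523 and 481 against 1993 and 1627 (1.81, SE 0.17, adjusted p = 0.0141). For each of these genes the arrays of the groups stood apart, and the closest pair of arrays, that of Ghr, was 1.91-fold apart on the scale of signal plus 16. The others called were Cyp4f15 (1.42), Slc46a3, a lysosomal transporter (1.31), and Fam122c (1.21).

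**Figure D2:**
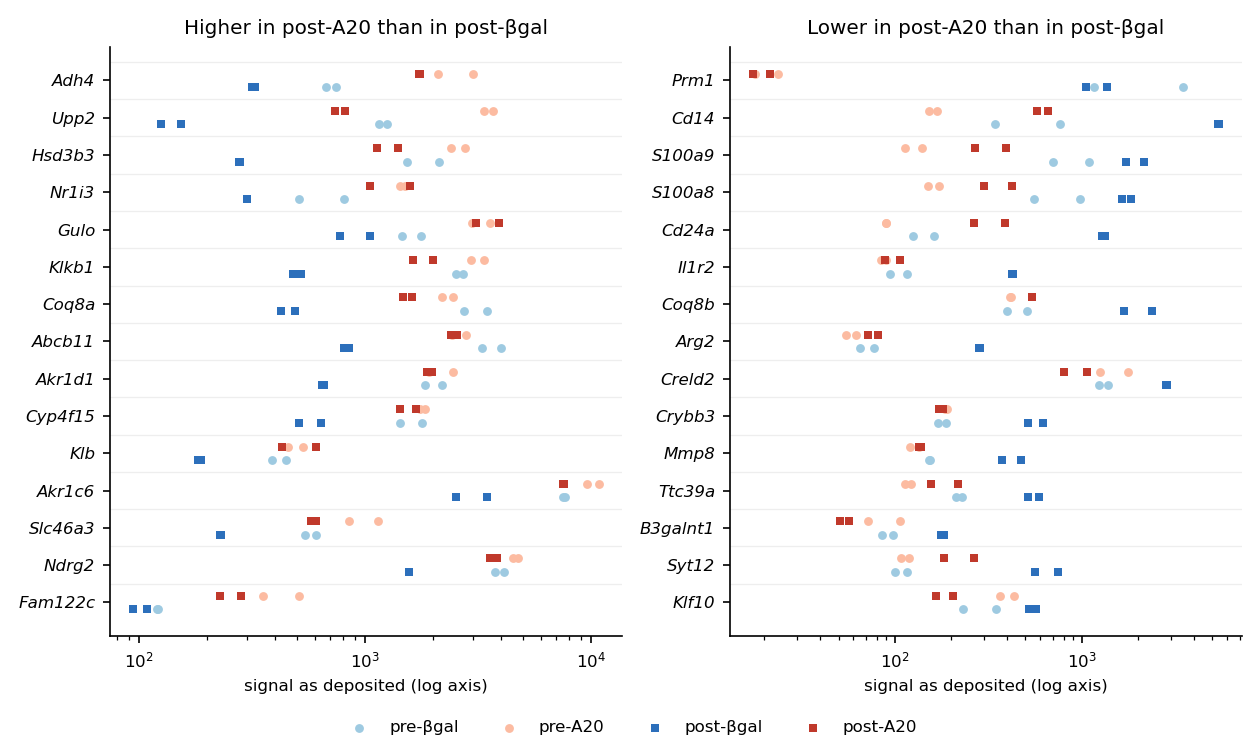
Signals on the deposited scale (log axis) of the 15 genes with the largest rise and the 15 with the largest fall among called genes, with 1 point for each of the 2 arrays of the 4 groups. In the left panel the post-βgal arrays (dark blue) are the lowest for each gene, and in the right panel they are the highest except for Prm1, whose pre-βgal arrays reach 3462.

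Whole groups of hepatocyte genes leaned the same way as these single genes, though few members passed. Of 30 alcohol, aldehyde and retinol enzymes tested, 4 were called, all higher (Adh4, Adh1, Akr1d1 and Akr1c6), the post-A20 arrays lay above in 24 and below in 1, and the median was 0.57. Of 19 uptake carriers none was called, with arrays above in 16 and below in 1 and a median of 0.68. The bile acid uptake carrier Slc10a1 had 1814 and 2063 against 4144 and 6011 (1.36, adjusted p = 0.0860), and Slc22a30 had 359 and 259 against 1018 and 794 (1.51, adjusted p = 0.0734). Of 25 genes of bile acid synthesis and transport, Abcb11 was called, and arrays were above in 17 and below in 2, with a median of 0.58. Cyp8b1, which sets the share of cholic acid, had 1479 and 831 against 2688 and 3236 (1.40, adjusted p = 0.0749). Of 32 genes of amino acid catabolism and the urea cycle none was called, with arrays above in 22 and below in none and a median of 0.39. The urea cycle enzymes Cps1 (0.18), Otc (0.14), Asl (0.27) and Arg1 (−0.17) overlapped, while Ass1 (0.31) had both arrays above. The tyrosine enzyme Hpd had 5809 and 4258 against 9559 and 11200 (1.06, adjusted p = 0.0625).

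The coagulation and complement genes followed with a smaller shift. Of 32 tested, Klkb1 was called, arrays were above in 20 and below in 1, and the median was 0.25. Serpind1, which inhibits thrombin, had 1035 and 1504 against 4526 and 4225 (1.80, adjusted p = 0.0625), while Thbd, the thrombomodulin of endothelium, had 648 and 537 against 117 and 318 (−1.52, adjusted p = 0.109). Of 24 cytochrome P450 genes of drug metabolism, none was called, and 16 had arrays above and 3 below, with a median of 0.36. Of 18 growth hormone targets and male-biased genes, Ghr was called, and the median was 0.46, against 0.47 before resection. Single members changed more than the median. Mup10, Hsd3b5 and Slco1a1, the widest apart before resection, went from 3.53, 3.25 and 2.73 to 1.65, 1.28 and 1.04. Ghr and Igfals went the other way, from 0.58 and 0.72 to 1.14 and 1.12. The medians before resection were also above 0 for the other lists of hepatocyte function, at 0.37 for alcohol and retinol enzymes, 0.43 for uptake carriers, 0.29 for bile acid genes and 0.18 for amino acid catabolism. These lists overlap, since Slc10a1 for one is a member of 2 of them.

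**Figure D3:**
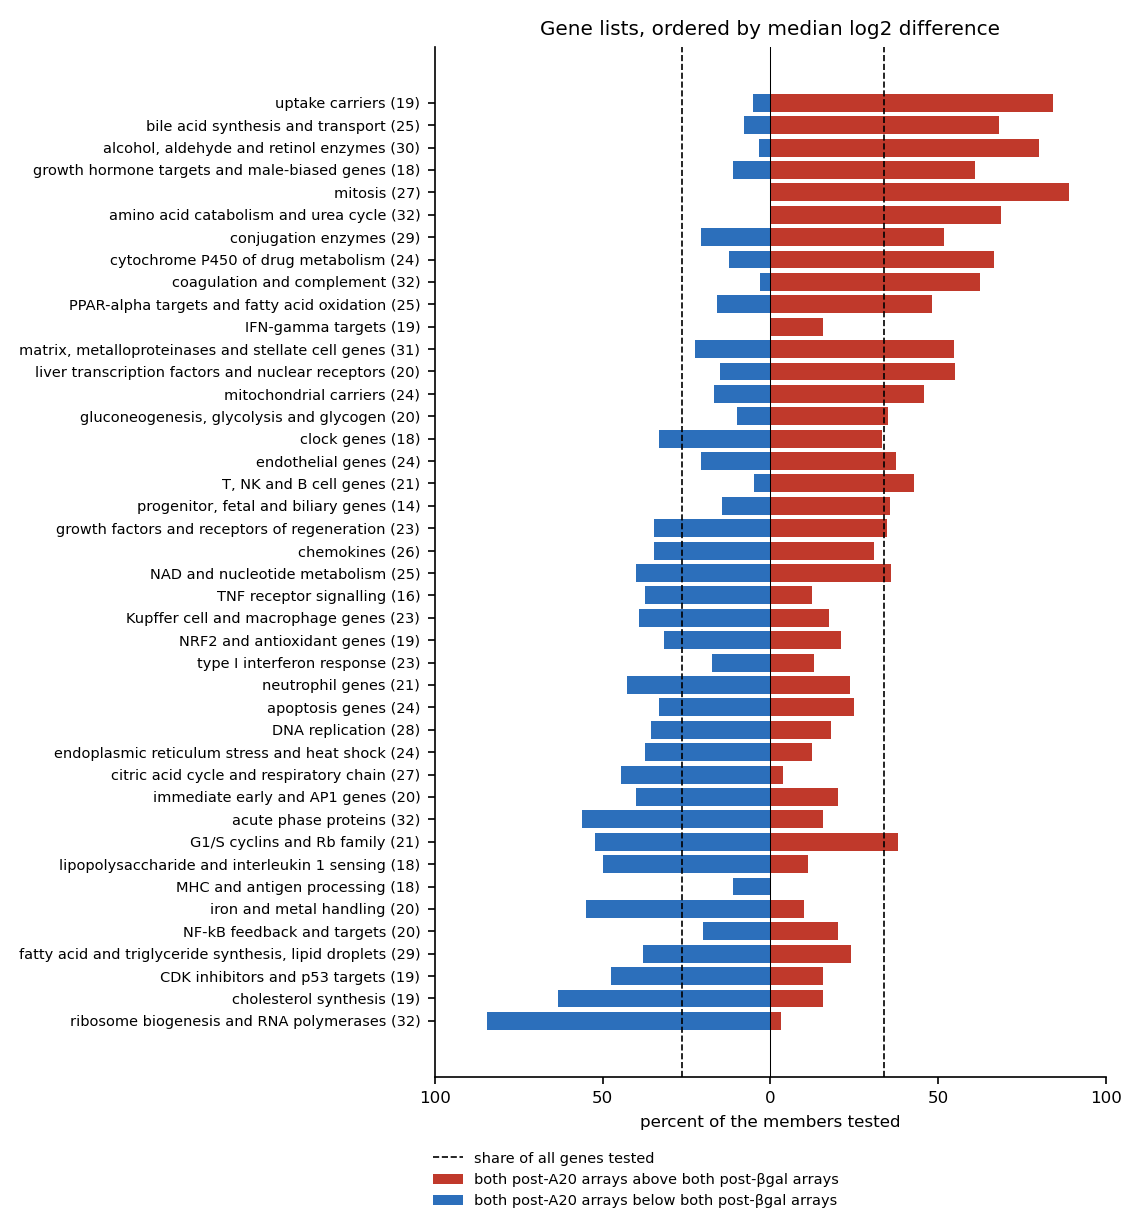
For each gene list (number of members tested in brackets), the bar to the right gives the percent of members whose 2 post-A20 arrays both lay above the 2 post-βgal arrays, and the bar to the left the percent with both below. Dashed lines mark the shares over all genes tested, 33.7% above and 26.4% below, and lists are ordered by their median log2 fold change, from uptake carriers (0.68) to ribosome biogenesis (−0.53).

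Not all biosynthetic groups leaned upward. Of 32 genes of ribosome biogenesis and RNA polymerases, which raise the capacity for protein synthesis in growing cells, none was called, but the post-A20 arrays lay below in 27 and above in 1, and the median was −0.53 against −0.16 before resection. Nop58, a core protein of small nucleolar particles, had 494 and 593 against 224 and 284 (−1.06, adjusted p = 0.0945), and Polr1e, a subunit of RNA polymerase I, had 330.0 and 249 against 148 and 134 (−0.95, adjusted p = 0.0889). Without post-βgal 1 the median of the list was −0.33, and without post-βgal 2 it was −0.71. Of 19 genes of cholesterol synthesis none was called, with arrays below in 12 and above in 3, and the median was −0.51 where it had been 0.16 before resection. Fdft1, squalene synthase, had 1509 and 1227 against 927 and 831 (−0.62, adjusted p = 0.130), and Hmgcs1, which feeds the pathway, had 6440 and 5556 against 4439 and 3061 (−0.70, adjusted p = 0.215). Without post-βgal 1 the median of these genes was −0.32. The acute phase list holds proteins secreted in inflammation and also receptors and regulators such as Il6ra, Stat3 and Cebpd. It had no call among 32 genes, with arrays below in 18 and above in 5 and a median of −0.16. Saa3, a serum amyloid A, had 5554 and 9086 against 3268 and 2902 (−1.20, adjusted p = 0.162), after a much wider gap before resection (−3.56). The citric acid cycle and respiratory chain had arrays below in 12 of 27 and above in 1, with a median of −0.14.

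Genes of the cell cycle did not lean one way as a whole. None of 27 mitosis genes was called, yet the post-A20 arrays lay above the post-βgal arrays in 24 and below in none, and the median was 0.40, against −0.04 before resection and 0.03 over all genes tested. Leaving out any 1 of the 4 arrays kept that median between 0.40 and 0.46. Kif11, the motor that separates spindle poles, had signals of 161 and 212 in post-βgal and 339 and 373 in post-A20 (0.89, SE 0.15, adjusted p = 0.0625), and Ube2c, which marks mitotic proteins for destruction, had 835 and 871 against 1515 and 1343 (0.73, SE 0.16, adjusted p = 0.0945). Kif20a, a motor of the late spindle, had 119 and 132 against 227 and 232 (0.80, adjusted p = 0.115), and Ccnb2, a mitotic cyclin, had 326 and 389 against 735 and 562 (0.83, adjusted p = 0.125). For each of these the arrays did not overlap, but single genes did not pass.

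The promoters of the mitosis genes with the smallest p are shown because the members of this list lay on one side in nearly all cases. Such genes are known to be held silent in resting cells through elements of the kind searched for here. A high share of matches could therefore be foreseen whatever the arrays read. The part of these elements in the differences was not tested. The search was for the CHR, TTTGAA, and for CCAAT, on both strands in the same window of 300 bases, and 1 CHR match overlapped a CCAAT match in the promoters of the list. The CHR was present in 18 of the 23 promoters of the list (78.3%), in 17.9% of all promoters and in 13.3% of those of genes tested. For CCAAT these shares were 19 of 23 (82.6%), 37.4% and 37.2%. Of the 35 promoters of the ribosome biogenesis list, 4 held the CHR and 7 CCAAT. Capitals mark matches of either motif on either strand. The promoters lie at chr19:37376132-37376431 (Kif11, plus strand, CHR from −19 to −14) and chr2:164769679-164769978 (Ube2c, plus strand, CHR from −29 to −24).
Kif11: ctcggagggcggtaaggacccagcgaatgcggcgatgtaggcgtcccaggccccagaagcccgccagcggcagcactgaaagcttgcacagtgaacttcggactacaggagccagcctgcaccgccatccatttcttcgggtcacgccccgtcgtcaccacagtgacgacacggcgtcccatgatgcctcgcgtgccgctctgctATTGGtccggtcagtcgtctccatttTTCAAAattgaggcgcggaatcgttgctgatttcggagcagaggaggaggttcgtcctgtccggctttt
Ube2c: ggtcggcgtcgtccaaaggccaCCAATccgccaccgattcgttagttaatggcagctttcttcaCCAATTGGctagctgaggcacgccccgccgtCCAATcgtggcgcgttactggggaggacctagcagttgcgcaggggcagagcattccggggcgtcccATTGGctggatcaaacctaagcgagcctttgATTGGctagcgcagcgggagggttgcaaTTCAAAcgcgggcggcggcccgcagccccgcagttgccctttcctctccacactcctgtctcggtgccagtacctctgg
Both promoters were chosen after the values of their genes were seen, and a match is a description of the letters, not of binding.

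The earlier steps of the cycle did not share the direction. Of 21 G1/S cyclins and Rb family genes, none was called, with arrays above in 8 and below in 11 and a median of −0.18. Ccne2, the cyclin E2 that drives entry into DNA synthesis, had 1043 and 1289 against 408 and 398 (−1.49, adjusted p = 0.0625), and Cdk2, its kinase partner, had 800.0 and 836 against 434 and 459 (−0.85, adjusted p = 0.0689). Cdk2 passed under 8 of 24 alternatives, with an adjusted p down to 0.0122. Ccnd1, cyclin D1, went the other way at 316 and 275 against 635 and 2000, with the 2 post-A20 arrays more than 3-fold apart (1.88, adjusted p = 0.118). Of 28 DNA replication genes none was called, and the median of −0.11 became 0.10 without post-A20 1 and −0.45 without post-A20 2, so the direction of that list rested on single arrays. Of 19 inhibitors of cyclin-dependent kinases and p53 targets, none was called, with arrays below in 9 and above in 3 and a median of −0.26. Cdkn1a, the p21 inhibitor that p53 induces, had 4669 and 3864 against 2313 and 1882 (−1.02, adjusted p = 0.0928). Before resection it had been called lower with A20, by −1.79 (adjusted p = 0.0202). Its other probe set read 2120.0 and 1703 against 355 and 359.8 after resection (−2.36, adjusted p over all probe sets = 0.0383), so its call at that time depended on the probe set. The brightest probe set of Cdkn1a met the interval criterion, with the lower end of its 90% interval at a log2 of 0.604. Phlda3, another p53 target, had 1998 and 1749 against 803 and 378 (−1.73, adjusted p = 0.0853).

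**Figure D4:**
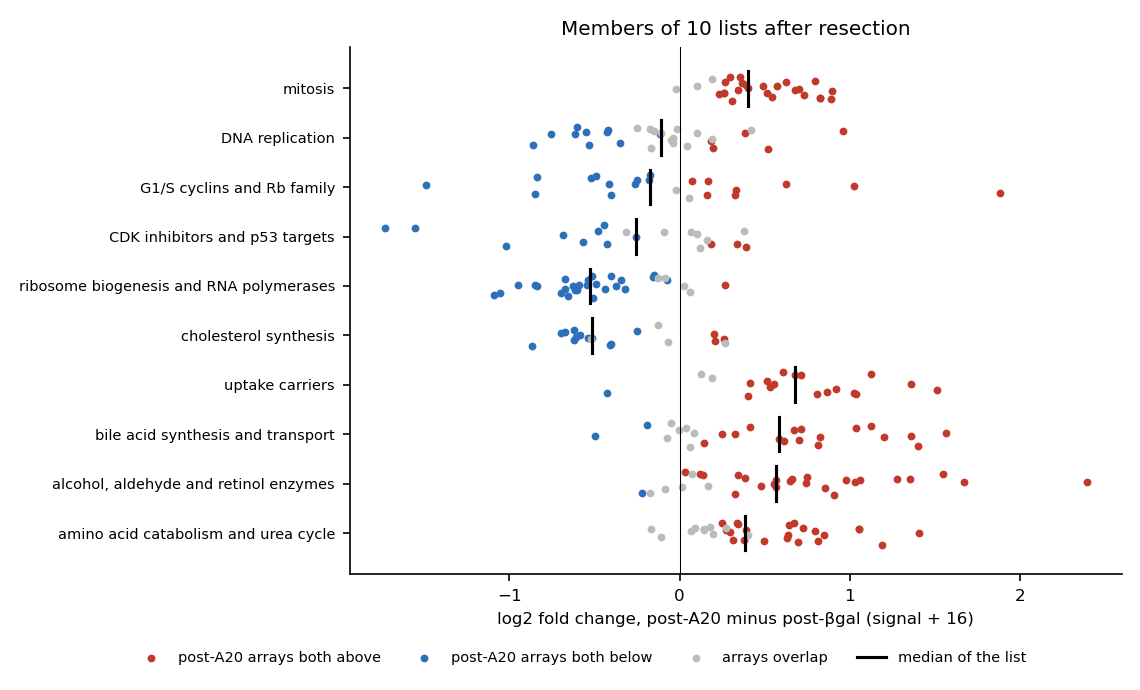
Log2 fold change, post-A20 minus post-βgal, of every tested member of 10 gene lists. Red points have both post-A20 arrays above both post-βgal arrays, blue points both below, grey points overlap, and the black line is the median, from 0.68 for uptake carriers to −0.53 for ribosome biogenesis.

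Other genes that the study singles out did not pass either when read through their brightest probe set with all arrays. Ppara, the nuclear receptor of fatty acid oxidation, had 575 and 899 against 1597 and 1652 (1.16, adjusted p = 0.136), and 1.32 before resection. Across the alternatives that value ranged from 0.32 to 1.47. Its target Cpt1a, which admits fatty acids to mitochondria, had 2159 and 3142 against 3675 and 5282 (0.75, adjusted p = 0.428, 0.29 to 1.02 across the alternatives). The mitochondrial carriers Slc25a10 and Slc25a13 had log2 fold changes of 0.79 (adjusted p = 0.138) and 1.22 (adjusted p = 0.255), and passed under 4 and 2 of 24 alternatives. For these 4 genes the post-A20 arrays were the higher ones throughout. Other targets of Ppara and genes of fatty acid oxidation went both ways, with more of them above than below. Fgf21 (−0.87), Acot2 (−0.93), Vnn1 (−0.73) and Cpt2 (−0.14) had both post-A20 arrays below. Hadh (0.69), Acot1 (0.60) and Acaa2 (0.51) had both above. So did Eci1, Acadm, Acaa1a, Etfdh, Acadl, Hadhb and Hadha, with log2 fold changes from 0.20 to 0.69. The remaining members overlapped, and none of the list passed. Ccna2, cyclin A2, had 690.1 and 503 against 869 and 968 (0.62, adjusted p = 0.267), and passed with the RNA integrity covariate (0.88, adjusted p = 0.0182). Rb1, the retinoblastoma protein, overlapped at 465 and 601 against 507 and 598. Cav1 (−0.25), Tgfbr1 (−0.13), Nr3c1 (0.43) and Ifng (−0.20) had adjusted p from 0.442 to 0.636. Lepr, the leptin receptor, depended on the probe set. Its brightest one had 332 and 319 against 273 and 307 (−0.16, adjusted p = 0.491). A dimmer one had 387 and 290.4 against 24.7 and 30.4 (−3.02, adjusted p over all probe sets = 0.0051), and had read 23.1 to 39.7 on the 4 arrays before resection. Of the other 2 probe sets of Lepr, 1 had 98.6 and 203 against 33.4 and 42.6 (−1.56, adjusted p over all probe sets = 0.0717) and 1 leaned the other way, with 107 and 95.4 against 118 and 109 (0.14, adjusted p over all probe sets = 0.463).

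The interferon response did not read alike in the 2 post-A20 pools. Of 19 targets of IFNγ, which induces guanylate-binding proteins and T cell chemokines, the median log2 difference of post-A20 1 minus post-A20 2 was 1.60, against 0.02 over all genes tested. Cxcl10, a chemokine for T cells, had 3387 on post-A20 1 and 379 on post-A20 2, and 353 and 1836 on the post-βgal arrays. Gbp2, a guanylate-binding protein, had 1349 and 238 on them against 513 and 979.7 in post-βgal, and Ubd, a ubiquitin-like protein, had 1242 and 276 against 414 and 537. The groups overlapped in 16 of the 19 genes, and the other 3 (Ido1, Nos2 and Ciita) had both post-A20 arrays above. The median difference between the transgenes was 0.19 with all arrays, −0.46 without post-A20 1 and 0.99 without post-A20 2, so no direction can be given for this group. The same held for 18 genes of MHC and antigen processing (−0.20, −0.71 without post-A20 1 and 0.25 without post-A20 2) and for 23 of the type I interferon response (−0.08, −0.41 and 0.26).

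**Figure D5:**
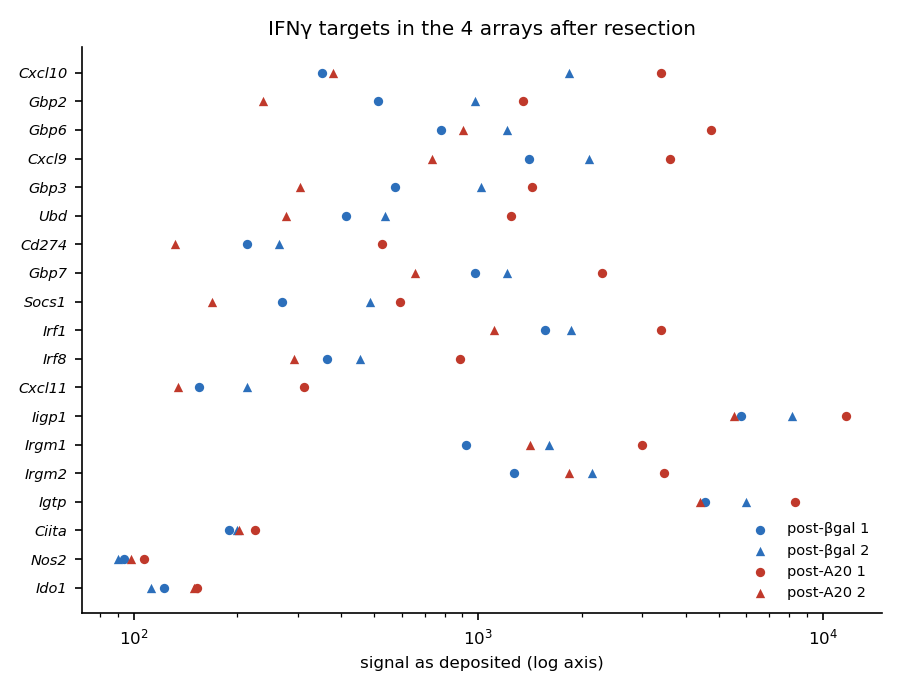
Signals on the deposited scale (log axis) of 19 IFNγ targets on the 4 arrays after resection, ordered by the difference between the 2 post-A20 arrays. For Cxcl10 the array post-A20 1 reads 3387 and post-A20 2 reads 379, and the post-A20 arrays (red) are farther apart than the post-βgal arrays (blue) for most of the genes shown.

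Of the 10 genes that differed most between the post-A20 pools, 9 belong to that response or are known to be induced with it, and the largest was Afp, the fetal serum protein, with 97.4 on post-A20 1 and 1464 on post-A20 2. Across genes the 2 post-A20 pools correlated at 0.988 and had 99 genes at least 2-fold apart, and the post-βgal pools correlated at 0.988 with 58 such genes. The post-βgal pools differed most in Ctse, a protease (366 and 2778), and in Cxcl10, followed by Rnd1 (168 and 865) and Tlr2, the receptor for bacterial lipoproteins (148 and 642), all higher on the second array, which is the one with the lower β-actin ratio. The part of RNA integrity in these gaps was not tested.

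Finally, the difference between the transgenes after resection was set beside that before it, on separate arrays. The study took RNA before resection from the resected part and RNA after it from the remnant. The same mice may therefore have given both, so the differences at these times may not be independent. The sample labels do not tell which pools share mice, and the model treats all arrays as independent. Both differences of a gene were also tested with the same estimate of its spread, so calls before and after resection are not independent. Of the 59 called genes, 10 were also called before resection in the same direction, 3 higher (Adh4, Upp2 and Fam122c) and 7 lower (Prm1, S100a8, S100a9, Ttc39a, Slfn1, Raph1 and Fcor), where the background was 0.714% higher and 1.78% lower of all genes tested. Another 8 had the opposite sign before resection. Among them was Ppp1r3g, which had been called higher with A20 before resection (0.79, adjusted p = 0.0321). For whether the 2 differences themselves differ, limma called none of 17790 genes, with 2788 (15.7%) at an unadjusted p under 0.05 and a smallest adjusted p of 0.0646, shared by Il1r2, Arg2 and Ppp1r3g.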

How the data were processed

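The methods of the study describe dChip, with invariant set normalization and perfect-match probes, whereas the submitters' processing notes list MAS5. Which one produced the table could not be settled from them. The authors deposited 1 table of normalized intensities on a linear scale, which was used as deposited. The 45101 probe sets comprised 34945 with 1 symbol, 932 with several, 9160 without any and 64 controls. Log2 was computed after adding 16 to the signal, for the 42703 probe sets whose mean reached 40 in a group.

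All 8 arrays were fitted in 1 model of 4 group means with limma 3.58.1 in R 4.3.3. Variances were moderated with a trend over all kept probe sets (4 residual and 3.73 prior degrees of freedom), tests were 2-sided, and p was adjusted by Benjamini-Hochberg over genes. The number of arrays limits the precision. Named genes were the 15 largest called differences in each direction, other called genes on a list, the members of smallest p in a described list, 4 at most (or the most abundant markers), the genes the paper names, the 10 genes that differed most within each pair of pools, and called genes whose probe sets disagreed. Some further list members and called genes were named after their values were seen. The comparison, the gene lists and the promoters shown were chosen with earlier results of these data known. Alternatives were other scalings, filters, offsets, variance models, probe set choices and array sets. Calls were tested on simulated data. Raw probe files were not used here.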

Additional observations from a re-analysis of the deposited data

Results flagged for a closer look

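For 4 called genes the arrays with A20 lay on one side of the βgal arrays after resection and on the opposite side before it. For 2 the difference turned to lower with A20. Klf10, a transcription factor induced by TGF-β, had a log2 fold change of −1.48 after resection and 0.47 before it, when the arrays read 232 and 347 with βgal and 366 and 437 with A20. The test of the difference between the 2 gave an adjusted p of 0.212 (limma). Ppp1r3g, the glycogen-targeting phosphatase subunit, had −1.23 after and 0.79 before resection, when it read 73.0 and 57.7 against 119 and 129.5, and its adjusted p was 0.0646.

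For the other 2 the difference turned to higher. Abcb11, the bile salt export pump, had 1.56 after and −0.48 before resection, when it read 4012 and 3290 with βgal and 2802 and 2425 with A20, and the test of the difference gave an adjusted p of 0.108. Coq8a, of coenzyme Q synthesis, had 1.72 after and −0.42 before resection (adjusted p = 0.109), when it read 3479 and 2746 against 2449 and 2185. None of the 4 passed in the test of the difference. No group had enough arrays for a test of single outlying arrays.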

How the results depend on the processing

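Calls depended on the variance model, the probe set and single arrays, and the directions of the 59 called genes did not. Because the arrays of these genes did not overlap, leaving out an array could not have turned a direction. The count of 59 was 58 to 87 under other scalings, filters, offsets, a robust trend and without both βgal replicate 1 arrays. It was 100 with no variance trend, 275 with the probe set of largest variance, 242 with the mean of probe sets, 242 with only the 4 arrays after resection, 682 with RNA integrity (log2 β-actin ratio) as a covariate, and 252 with variances moderated over the genes' own probe sets, an alternative chosen after seeing the data. Leaving out 1 array gave 0 to 467. Higher genes were 28.8% of calls, 37.7% after quantile normalization, 22.4% after median centring and 39.1% without both βgal replicate 1 arrays. All 59 kept their direction under every setting, and over 888 combinations of 37 of them with a setting 662 kept their call and 226 lost it. The interval criterion gave 204 genes with the mean of probe sets, 221 with 1 probe set per gene, and 249 to 472 without 1 array. The count at least 2-fold apart in every pair was 156 to 254 without 1 array, where fewer pairs have to meet it.

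For the test of the difference between after and before resection, 0 became 1 with quantile normalization, 2 with median centring, 3 with an offset of 32, 4 with the probe set of largest variance, 4 with the mean of probe sets, 5 with variances over genes only, 125 with the RNA integrity covariate and 0 to 12 without 1 array. The causes were not tested. With the replicate number as a block, 2 genes were called after resection. Deviations of same-numbered A20 and βgal arrays correlated at −0.0178 after resection and −0.145 before it. Same-numbered arrays of 1 vector before and after resection were not compared, so whether the numbers pair samples is not known.

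Some genes not called with the main setting passed under others. With the probe set of largest variance these were Cdkn1a (−2.36), Lepr (−3.02) and Cdk2 (−0.85), with the mean of probe sets Cdkn1a (−1.69), Lepr (−1.15), Slc25a10 (0.90) and Cdk2, with the RNA integrity covariate Cdkn1a (−0.90), Slc25a10 (0.95), Cdk2 (−0.93) and Ccna2 (0.88), and without either pre-βgal array Cdkn1a, Slc25a10, Slc25a13 and Cdk2. Cdk2 also passed with no variance trend, with only the 4 arrays after resection and with variances over genes only. Other genes reversed. Tgfbr1 was 0.50 with the probe set of largest variance and 0.16 with the mean of probe sets. Rb1 was −0.12 without both βgal replicate 1 arrays. Without 1 array, Rb1 ranged from −0.12 (post-βgal 1) to 0.24 (post-βgal 2), and was −0.06 without post-A20 2, Ubd ranged from −0.74 (post-A20 1) to 1.37 (post-A20 2), Tnfaip3 from −1.07 to 0.095 and Ifng from −0.48 to 0.085 (both post-A20 1 and 2). List medians that changed sign with a scaling were within 0.1 of 0 (chemokines, type I interferon response, NAD and nucleotide metabolism, growth factors), as was the median of all genes.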
